A study of Mus musculus with 12 samples.

Results

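The comparison described here is Kira8+Stattic against Kira8 alone: what the STAT3 inhibitor Stattic changed in cells also given the IRE1 inhibitor Kira8. Its members are the 6 libraries so labelled out of 12 in the series, 3 per group, and it is read across all expressed genes. The cells were Th17 cells, a helper T cell type named for its cytokine IL-17, obtained from wild-type mouse lymph nodes by differentiation of naive T cells. The other libraries were cells with no inhibitor (None) and cells with Stattic alone, 3 each, and each inhibitor was applied for 4 h. All 4 groups share the wild-type genotype, the tissue and the differentiation. Doses, the age of the mice, any solvent given to None and the order in which the inhibitors were added are not in the labels. Nor do the labels say whether replicates were separate cultures or animals, so p-values measure the spread between these libraries, which may be technical.

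STAT3 is the transcription factor that IL-6, IL-21 and IL-23 activate through JAK kinases, and in T cells it drives the Th17 program and the inhibitor gene Socs3. Stattic is a small molecule aimed at the SH2 domain of STAT3, and it is reactive toward thiols. IRE1, encoded by Ern1, senses unfolded protein in the endoplasmic reticulum (ER) and splices Xbp1 mRNA into the form that makes an active transcription factor; Kira8 inhibits its kinase and through it the RNase. Both inhibitors act on proteins, so the mRNA levels of Stat3 and Ern1 do not report whether either was blocked, and gene counts do not show Xbp1 splicing.

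Stat3 stood at 486 and 467 CPM (read counts relative to the library's total, with TMM scaling) in Kira8 replicates 1 and 3 and at 559.8, 552 and 471 CPM in Kira8+Stattic replicates 1 to 3, and it was not called (log2 change 0.15 ± 0.15, adjusted p = 0.504). Ern1 was not called either (-0.11 ± 0.27, adjusted p = 0.797). Throughout, a change is the log2 ratio of Kira8+Stattic to Kira8 ± its standard error, with n = 3 and n = 2. That error is derived from the quasi-likelihood F test of edgeR, whose spread is estimated over the 10 libraries fitted, not these 5 alone. A called gene is one whose Benjamini-Hochberg adjusted p from the same test lay under 0.05.

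Kira8 replicate 2 stood apart and is left out unless named. Mitochondrial transcripts took 61.5% of its counts, against 3.68% to 4.98% in the other 5 libraries of the comparison, and counts were found for 40.4% of olfactory receptor genes, against 4.93% to 10.0%. It held 19.8 M (megacounts), against 51.7 to 85.9 M in the other 5. Stattic replicate 2 (9.28 M, 10.7% mitochondrial, 33.3% of olfactory receptor genes) was left out of the shared fit too, so that 10 libraries entered. T cell identity was plain in the 5 libraries: Cd4 was at 387 and 344 CPM with Kira8 and 379, 376 and 410.5 with both inhibitors. In bulk RNA, fewer cells of a type and less RNA per cell cannot be told apart.

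Of 21239 genes tested, 6514 were called (30.7%): 3116 higher (14.7%) and 3398 lower (16.0%). The groups did not overlap for 6981 genes on the higher side and 6331 on the lower, 62.7% of all genes. The count fell to 3579 without Kira8 replicate 1 and to 3270 without Kira8 replicate 3, each leaving a single Kira8 library; 2628 genes (12.4%) were called in the same direction without each of the 5 libraries in turn, 1017 higher and 1611 lower. Large rises outnumbered large falls, 699 against 133 beyond 8-fold, but 439 of those 699 had a mean under 1 CPM and 301 were at 0 in both Kira8 libraries. The median change over all genes was 0.12, and it was -0.00 with scaling by library size alone, under which 38.2% of the called genes were higher instead of 47.8%.

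With all 12 libraries, which include Kira8 replicate 2, edgeR called 0 of 20993 genes (0.0%) at the adjusted threshold, with 2536 at an unadjusted p under 0.05. On the same libraries DESeq2 called 1226 genes, limma voom 1 and limma voom with library quality weights 9279. The common dispersion was 1.01 there and 0.143 in the 10 libraries. Of 6499 genes called in the 10 libraries and tested in the 12, 6011 changed in the same direction. When Kira8 replicate 2 alone was added to the 10, 342 genes were called, and all 342 had been called the same way without it.

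**Figure D1:**
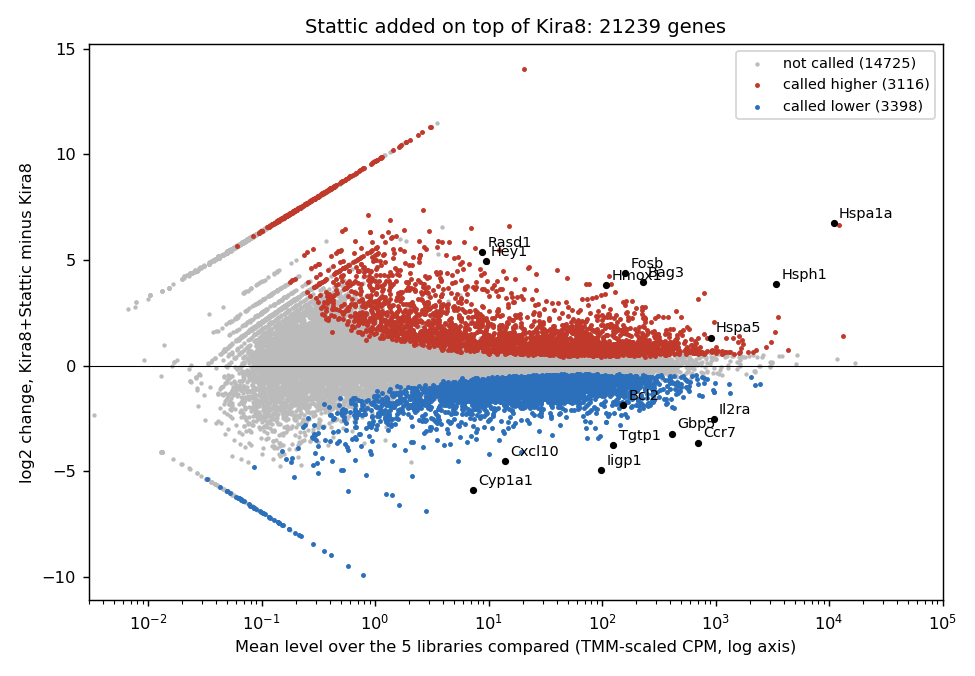
Each point is a gene, with its mean level over the 5 libraries compared (TMM-scaled CPM, log axis) against its log2 change from Kira8 to Kira8+Stattic; red and blue points were called higher (3116) and lower (3398), grey points were not called, and the diagonal lines at low level are genes at 0 in all libraries of a group. Hspa1a and its copy Hspa1b lie far above other genes of their level, and Ccr7, Gbp5, Tgtp1 and Iigp1 are among the lowest of genes of high or middle level.

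Heat shock genes led the rises among well expressed genes. Hspa1b and Hspa1a, neighbouring copies of the inducible HSP70 gene, were 101-fold and 107-fold higher. Hspa1b (ENSMUSG00000090877, chromosome 17, 34956436 to 34959238, minus strand) had 127 and 275 CPM in the Kira8 libraries and 11609.5, 20935 and 28569 CPM in the Kira8+Stattic libraries (log2 change 6.66 ± 1.00, adjusted p = 0.000494). Hspa1a (ENSMUSG00000091971, chromosome 17, 34969190 to 34972156, minus strand) had 113 and 227 CPM and 9959, 18283 and 26160.5 CPM (6.74 ± 1.03, adjusted p = 0.00053). The groups were far apart for both. Kira8 replicate 3 was above replicate 1, Kira8+Stattic replicate 1 was the lowest of its group, and without Kira8 replicate 3 the Hspa1b change was 7.32. Reads of the pair are easily shared between the copies, so the split between them is uncertain. Together they took 2.18%, 3.71% and 4.93% of all counts in Kira8+Stattic replicates 1 to 3, and 0.0250% and 0.0521% in Kira8 replicates 1 and 3.

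Of 24 tested HSF1 targets and cytosolic chaperones, 18 rose and 1 fell, where 14.7% and 16.0% of all genes did. The median change was 1.20 in the list and 0.12 over all genes. HSF1 is the factor that induces chaperones when cytosolic protein misfolds. Hsph1, a nucleotide exchange factor of HSP70, went from 280.3 and 479 to 3103, 6771 and 6525 CPM (3.85 ± 0.45). Bag3, a cochaperone that links HSP70 to autophagy, went from 17.1 and 30.3 to 229.6, 409.7 and 451 CPM (3.94 ± 0.34). The HSP40 proteins that deliver clients to HSP70 rose as well, Dnajb1 from 101 and 128 to 867, 1282 and 1587 CPM and Dnajb4 by 3.15 ± 0.22. In each of these genes Kira8+Stattic replicate 1 was the lowest of its group and still above both Kira8 libraries. The groups were apart on the higher side for 6981 of all 21239 genes. The chaperonin genes Hspd1 and Hspe1, which share a promoter region and serve mitochondria, changed by 1.51 ± 0.33 and 1.84 ± 0.26, and the Hspd1 call was lost without Kira8 replicate 1. The member that fell was Dnajb2, from 47.9 and 52.9 to 16.9, 19.0 and 16.2 CPM (-1.54 ± 0.16, adjusted p = 5.99e-05). Hspa1l, a testis-enriched HSP70 gene beside Hspa1a, rose by 4.66 ± 0.49.

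The promoters of these genes are shown because HSF1 binds short inverted repeats, the heat shock element. Sequences are from RefSeq on GRCm38.p6, limited to bases before the start of transcription and read 5′ to 3′ on the strand of the gene; capitals mark bases that match the element, GAANNTTC or TTCNNGAA on either strand, searched for alone or as the longer run GAANNTTCNNGAA and its reverse complement. Hspa1a (chr17:34972213-34972300, minus strand) carries a single match, 104 bases before the start, and Hspa1b has the identical letters in this window. Hsph1 (chr5:149636322-149636409, minus strand) carries a match at 54 bases and Dnajb4 (chr3:152193846-152193899, minus strand) at 14. Hspe1 (chr1:55088019-55088116, plus strand) and Dnajb6 (chr5:29735812-29735897, plus strand) hold the longer run.
Hspa1a: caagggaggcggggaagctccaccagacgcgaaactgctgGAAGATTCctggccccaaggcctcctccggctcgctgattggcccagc
Hsph1: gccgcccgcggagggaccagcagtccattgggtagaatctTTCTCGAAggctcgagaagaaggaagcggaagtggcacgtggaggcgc
Dnajb4: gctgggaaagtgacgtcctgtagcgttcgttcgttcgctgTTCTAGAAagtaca
Hspe1: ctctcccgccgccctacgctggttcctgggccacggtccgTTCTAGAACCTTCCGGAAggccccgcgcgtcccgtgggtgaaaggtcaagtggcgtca
Dnajb6: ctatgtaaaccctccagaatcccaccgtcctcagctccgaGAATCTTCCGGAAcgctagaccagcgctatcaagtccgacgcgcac

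In the window from 250 bases before to 50 after the start, the shorter element was present in 12 of the 15 HSF1-list genes that rose and have a promoter in the table (80%), against 14.2% of 12506 tested genes with one. The longer run was present in 5 of the 15 (33.3%), against 0.544%. Over all 1938 genes called higher that have a promoter, the shorter element was present in 14.3%. A match is a description of letters, not a bound site.

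Immediate early genes, the transcripts that stimulation or stress induces first, rose as a group. Of 35 genes 25 were higher and 1 lower, with a median change of 1.63, where 14.7% and 16.0% of all genes were. The AP-1 subunit Fosb went from 12.5 and 12.4 to 230.3, 252 and 293 CPM (4.38 ± 0.44, adjusted p = 4.61e-05). Gadd45g, a stress-kinase activator, went from 12.9 and 12.7 to 90.8, 88.3 and 164 CPM, and Dusp6, the phosphatase that turns off ERK, from 28.4 and 28.1 to 125, 136 and 179.9 CPM. Egr2, which restrains T cell activation, went from 31.3 and 33.8 to 124, 145 and 165 CPM. None of these 4 genes had overlapping groups, which was also so for 62.7% of all genes. The zinc finger factor Klf10 and the small MAF protein Maff rose by 1.95 and 1.90. The member that fell was the AP-1 subunit Junb (-0.99 ± 0.17).

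Stress genes outside the heat shock list went up in part. Of 41 targets of ATF4 and CHOP, the factors of the integrated stress response, 15 rose and 2 fell (11 and 4 with scaling by library size alone), with a median of 0.44. Ppp1r15a, which recruits the phosphatase that ends this response, went from 85.7 and 95.9 to 425, 392.3 and 547 CPM, and Ddit3, which encodes CHOP, from 42.0 and 58.5 to 89.1, 119 and 118 (1.11 ± 0.19, adjusted p = 0.000915). Cebpb and Vegfa rose by 2.52 and 2.47, while the tryptophanyl-tRNA synthetase Wars, also an interferon-responsive gene, fell by 1.32. The element TGATGNAA (either strand) was in 38.2% of 34 promoters of the list, but in 3 of 15 of those that rose (20%), against 2.89% of all. For NRF2, a transcription factor of the electrophile response, 4 of 23 targets rose and 3 fell, where 14.7% and 16.0% of all genes did. Heme oxygenase, Hmox1, stood out at 10.6 and 14.1 against 89.4, 177 and 254 CPM (3.82 ± 0.44, adjusted p = 9.15e-05), whereas glutathione reductase, Gsr, fell by 1.18. Of 4 genes of zinc handling, the exporter Slc30a1 rose (1.10 ± 0.17) and Mt1 had a change of -0.03 (adjusted p = 0.932).

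**Figure D2:**
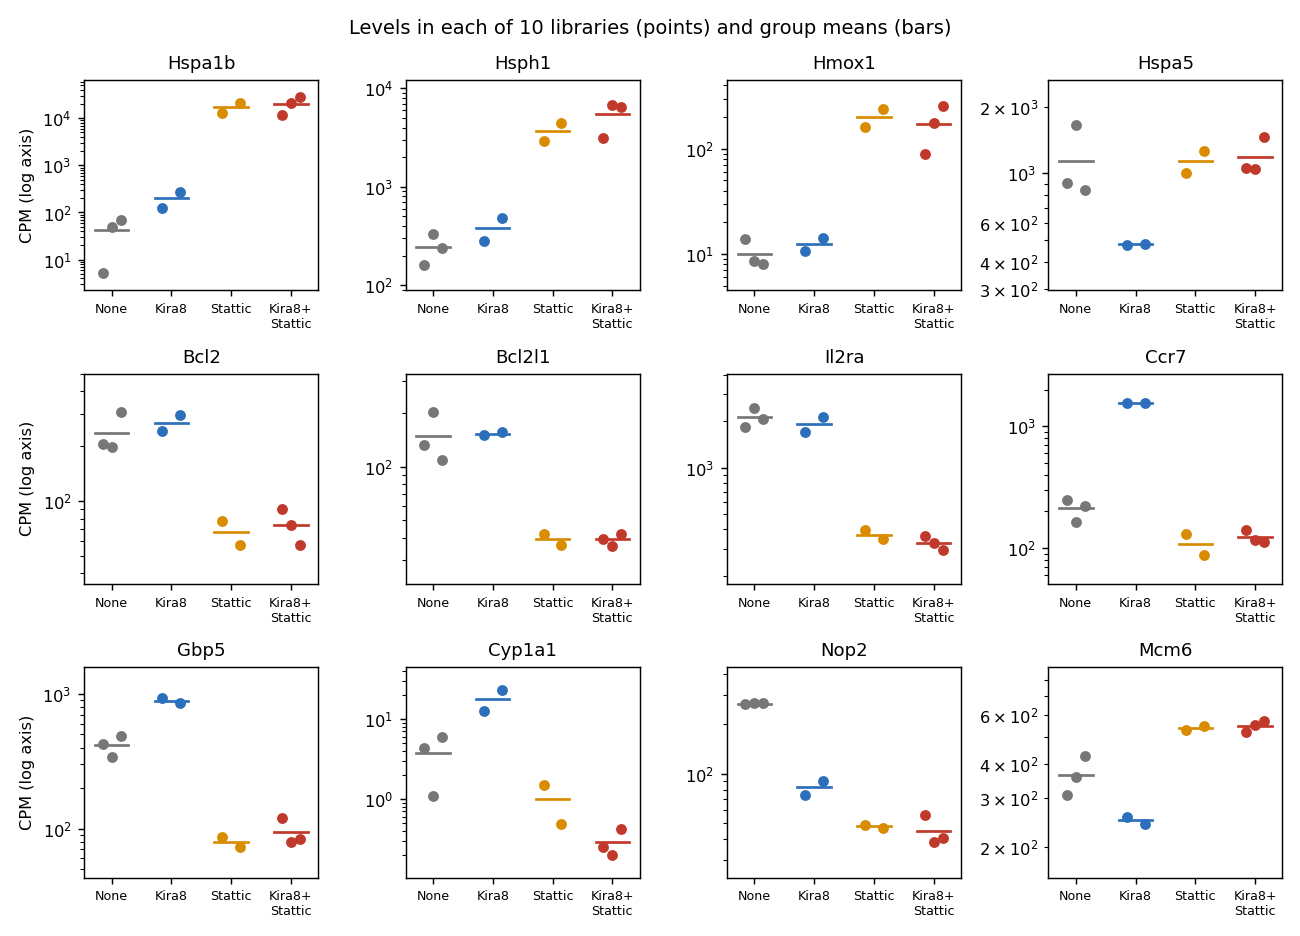
Levels of 12 genes in TMM-scaled CPM (log axis, scale set per gene) in the 10 libraries; points are libraries, bars are group means, and Kira8 replicate 2 and Stattic replicate 2 are not drawn. Hspa1b, Hsph1 and Hmox1 are high in all 5 libraries with Stattic; Ccr7, Gbp5 and Cyp1a1 are highest in Kira8 and low in both groups with Stattic; Hspa5 is lowest in Kira8.

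Genes of glucose use and hypoxia rose: 18 of 26 higher and 2 lower, with a median of 0.79. Of all genes, 14.7% were higher and 16.0% lower. Triose phosphate isomerase, Tpi1, went from 321 and 338 to 1493, 1218 and 1446 CPM (2.07 ± 0.20, adjusted p = 3.54e-05). The neuronal-type glucose transporter gene Slc2a3 went from 77.0 and 95.9 to 373, 265 and 327 CPM and the mitophagy receptor Bnip3 from 29.7 and 34.7 to 174, 145 and 164 CPM. Lactate dehydrogenase A, Ldha, and enolase, Eno1, rose by 1.39 and 1.32. Hif1a itself (-0.53 ± 0.18) and hexokinase 2, Hk2 (-0.82 ± 0.24), were the members that fell. With only replicate 3 or only replicate 1 of Kira8, 13 and 12 rose.

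ER chaperones as a list were higher with Stattic on top of Kira8 than with Kira8 alone, and stayed below None. The list median of log2(CPM + 1), relative to the mean of None, was -0.88 and -0.92 in Kira8 replicates 1 and 3. It was -0.54, -0.56 and -0.34 in Kira8+Stattic replicates 1 to 3, and -0.42 and -0.56 in Stattic replicates 1 and 3. The None libraries were at -0.10, 0.35 and -0.21. Of 17 ATF6 targets and ER chaperones 8 rose and 0 fell in edgeR, with a median of 0.53; 5 rose with Kira8 replicate 1 left out, 4 with Kira8 replicate 3 left out and 5 with Kira8+Stattic replicate 3 left out. Hspa5, which encodes BiP, went from 474 and 482 to 1057, 1049.6 and 1461 CPM (1.31 ± 0.29, adjusted p = 0.00478), P4hb, a disulfide isomerase, from 397 and 364 to 745, 827 and 954, and Dnajb9, an HSP40 of the ER lumen, from 30.7 and 31.4 to 147, 153 and 206. Xbp1 changed by 0.63 ± 0.18 (adjusted p = 0.0189), a call lost without Kira8 replicate 3 or Kira8+Stattic replicate 3. In the cells without Kira8, the same list had 3 higher and 8 lower with Stattic, and the difference between the responses was called higher for 8 members. Of 33 targets of spliced XBP1, 5 were higher and 6 lower (4 and 8 with scaling by library size alone). Of all genes 14.7% were higher and 16.0% lower, and the median change was 0.11 in the list and 0.12 over all genes. The mannosidase-like gene Edem3 changed by 1.82 and the COPII coat gene Sec31a by -1.12.

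Among the falls, NF-kB genes stood out: 14 of 22 fell and 2 rose, with a median of -1.31, and both counts were the same without each of the 5 libraries. NF-kB is the inflammatory factor family whose targets include its own subunits and inhibitors. The subunit Nfkb2 went from 743 and 834 to 216, 209 and 166 CPM (4.00-fold lower, adjusted p = 3.23e-05), and Relb, its partner, changed by -1.75 ± 0.17. The inhibitor Nfkbie went from 121 and 129.6 to 28.8, 34.7 and 30.1 CPM, and Birc3, a ubiquitin ligase of the pathway that also restrains caspases, from 296 and 312 to 74.2, 60.05 and 49.8 CPM. In all 4 genes the lowest Kira8 library was above the highest Kira8+Stattic library, as it was for 6331 of all 21239 genes. The members that rose were Nfkbid and Nfkbiz (1.46 and 1.03). Beside the counts of this list, the shares over all genes were 16.0% lower and 14.7% higher.

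Of 38 interferon-stimulated genes, 21 fell and 6 rose, where 16.0% and 14.7% of all genes did, with a list median of -1.04. Among the largest falls were Iigp1, Tgtp1, Tgtp2, Gbp5 and Gbp10, which encode interferon-inducible GTPases that attack the vacuoles of intracellular pathogens. Iigp1 went from 248 and 221 to 8.76, 8.61 and 5.27 CPM (-4.96 ± 0.26, adjusted p = 1.66e-06) and Tgtp1 from 289 and 277 to 24.5, 21.3 and 16.6 CPM (-3.77 ± 0.20), with its near-identical neighbour Tgtp2, whose reads may be shared, at -3.33 ± 0.21. Gbp5 went from 927 and 855 to 120.4, 79.7 and 83.2 CPM, Gbp7 changed by -3.09 ± 0.19, Gbp10 by -3.52 ± 0.43 and the chemokine Cxcl10 by -4.53 ± 0.37. The factor Irf1 changed by -1.94. The antiviral genes Isg15, Mx2 and Rsad2 were among the members that rose (2.35, 2.63 and 2.89), from low levels: Rsad2 had 0.667 and 0.968 and then 5.26, 5.73 and 7.23 CPM. The STAT element TTCNNNGAA was in 13 of 30 promoters of the list (43.3%), against 8.44% of all genes and 10.1% of the 2587 genes called lower. These are promoters of the whole list, not only of the members that fell, and a match is not a bound site.

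The next largest falls had other roles. Cyp1a1, the monooxygenase induced by the aryl hydrocarbon receptor (AHR), had 12.4 and 23.2 CPM with Kira8 and 0.249, 0.198 and 0.426 CPM with both inhibitors (-5.90 ± 0.71, adjusted p = 0.000125). Ahrr, the receptor's repressor and target, fell with it (-3.01 ± 0.53), while Ahr itself rose from 46.4 and 43.6 to 171, 238 and 221 CPM and its target Tiparp, a mono-ADP-ribosyltransferase, from 49.5 and 57.4 to 287, 389 and 407 CPM. Of 6 AHR-list genes tested, 2 rose and 3 fell, where 14.7% and 16.0% of all genes did. Ciita, the master regulator of MHC class II genes, changed by -3.50 ± 0.38, the Ikaros-family factor Ikzf4 by -3.30 ± 0.27, the hexose transporter gene Slc2a6 by -3.43 ± 0.21 and the zinc finger genes Zhx2 and Zkscan8 by -3.43 and -3.19. Lad1, an anchoring-filament gene, and Ankrd33b complete the largest falls (-4.19 and -4.52).

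Of 21 STATs and cytokine receptors 11 fell and 5 rose, with a median of -0.62. Of all genes, 16.0% fell and 14.7% rose. Il2ra, the alpha chain of the IL-2 receptor, went from 1698 and 2125 to 362, 328 and 296 CPM (-2.54 ± 0.18, adjusted p = 7.9e-06), and Stat5a, which acts downstream of IL-2, from 386 and 446 to 118, 95.7 and 91.0 CPM. Il7r changed by -1.05 ± 0.15. Il6st, the gp130 chain shared by the IL-6 family, rose instead, from 52.2 and 49.0 to 237, 425 and 368 CPM. Of 18 feedback and signalling genes of the JAK-STAT pathway 8 fell and 3 rose; the STAT5-induced inhibitor Cish went from 462 and 498 to 151, 149 and 162 CPM and the kinase Tyk2 changed by -1.42 ± 0.21. Without Kira8 replicate 1, 6 fell and 1 rose, and without Kira8 replicate 3, 5 and 1.

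Listed STAT3 targets moved in both directions: 11 of 27 fell and 7 rose, with a median of -0.38, where 16.0% and 14.7% of all genes did. The survival kinase Pim1 went from 619 and 607 to 203, 193 and 215 CPM (-1.59 ± 0.14, adjusted p = 1.77e-05), and the factors Irf4 and Maf changed by -1.18 ± 0.15 and -1.37 ± 0.16. Bcl6, the repressor that defines follicular helper cells, rose from 19.7 and 24.0 to 129, 173 and 163 CPM. Socs3, the inhibitor that STAT3 induces, had 97.0 and 86.0 CPM with Kira8 and 155, 135 and 156 with both inhibitors (0.70 ± 0.18, adjusted p = 0.0104), a rise whose call was lost without Kira8 replicate 1 or 3.

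The signature cytokines of Th17 cells were not called. Il17a had 149 and 155 CPM with Kira8 and 144, 180.4 and 162 CPM with both inhibitors (0.10 ± 0.49, adjusted p = 0.905), with overlapping groups. Il17f (0.51 ± 0.43, adjusted p = 0.402), Il23r (-0.38 ± 0.27, adjusted p = 0.317) and Il10 (0.68 ± 0.26, adjusted p = 0.0694) also missed the threshold. Il10 passed the threshold without Kira8+Stattic replicate 1 or without Kira8 replicate 3. The spread is estimated over all 10 libraries, and the None libraries had 514, 1394 and 247 CPM of Il17a.

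Other Th17 genes did fall. Of 22 on the list 7 fell and 3 rose: Ccl20, the chemokine that draws CCR6-bearing cells, went from 137 and 162 to 21.6, 18.3 and 18.6 CPM (-2.94 ± 0.19, adjusted p = 4.5e-06) and its receptor Ccr6 from 55.6 and 49.3 to 17.0, 10.3 and 11.8 CPM. Il22 was under 1 CPM in all 5 libraries, at 0.618 and 0.885 CPM and then 0, 0 and 0.0517 CPM. On the list for pathogenic Th17 cells, 9 of 21 genes fell and 0 rose in edgeR, among them lymphotoxin alpha, Lta, from 60.2 and 64.7 to 18.4, 15.4 and 17.3 CPM. Among factors of other lineages, Foxp3 of regulatory T cells fell (-1.71 ± 0.26) and Prdm1, which encodes Blimp-1, rose from 3.68 and 3.21 to 27.0, 46.6 and 50.9 CPM (3.59 ± 0.36). Activation genes had 8 higher and 4 lower of 24, and 6 and 6 with scaling by library size alone. The checkpoint receptor Pdcd1 was at 32.0 and 28.1 and then 68.4, 87.0 and 80.8 CPM. Beside these list counts, the shares over all genes were 14.7% higher and 16.0% lower.

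Among homing receptors, Ccr7 fell by 12.6-fold. Ccr7 (ENSMUSG00000037944, chromosome 11, 99144196 to 99155077, minus strand), the receptor that keeps naive and central memory cells in lymph nodes, went from 1549.6 and 1567 to 142, 117 and 111 CPM (-3.66 ± 0.22, adjusted p = 3.95e-06). Ccr4 changed by -1.92 ± 0.16, and of 18 chemokine and homing receptors 7 fell and 2 rose; 3 fell without Kira8 replicate 1. Genes of naive and quiescent cells had 6 higher and 7 lower of 21. Beside the counts of both lists, the shares over all genes were 14.7% higher and 16.0% lower. The chromatin organiser Satb1 fell from 1397 and 1573 to 683, 613 and 595 CPM and Slfn2, a guardian of quiescence, from 326 and 328 to 88.1, 79.0 and 93.0 CPM, whereas the antiproliferative gene Tob1 rose from 19.3 and 17.8 to 199, 195 and 219 CPM (3.46 ± 0.18).

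**Figure D3:**
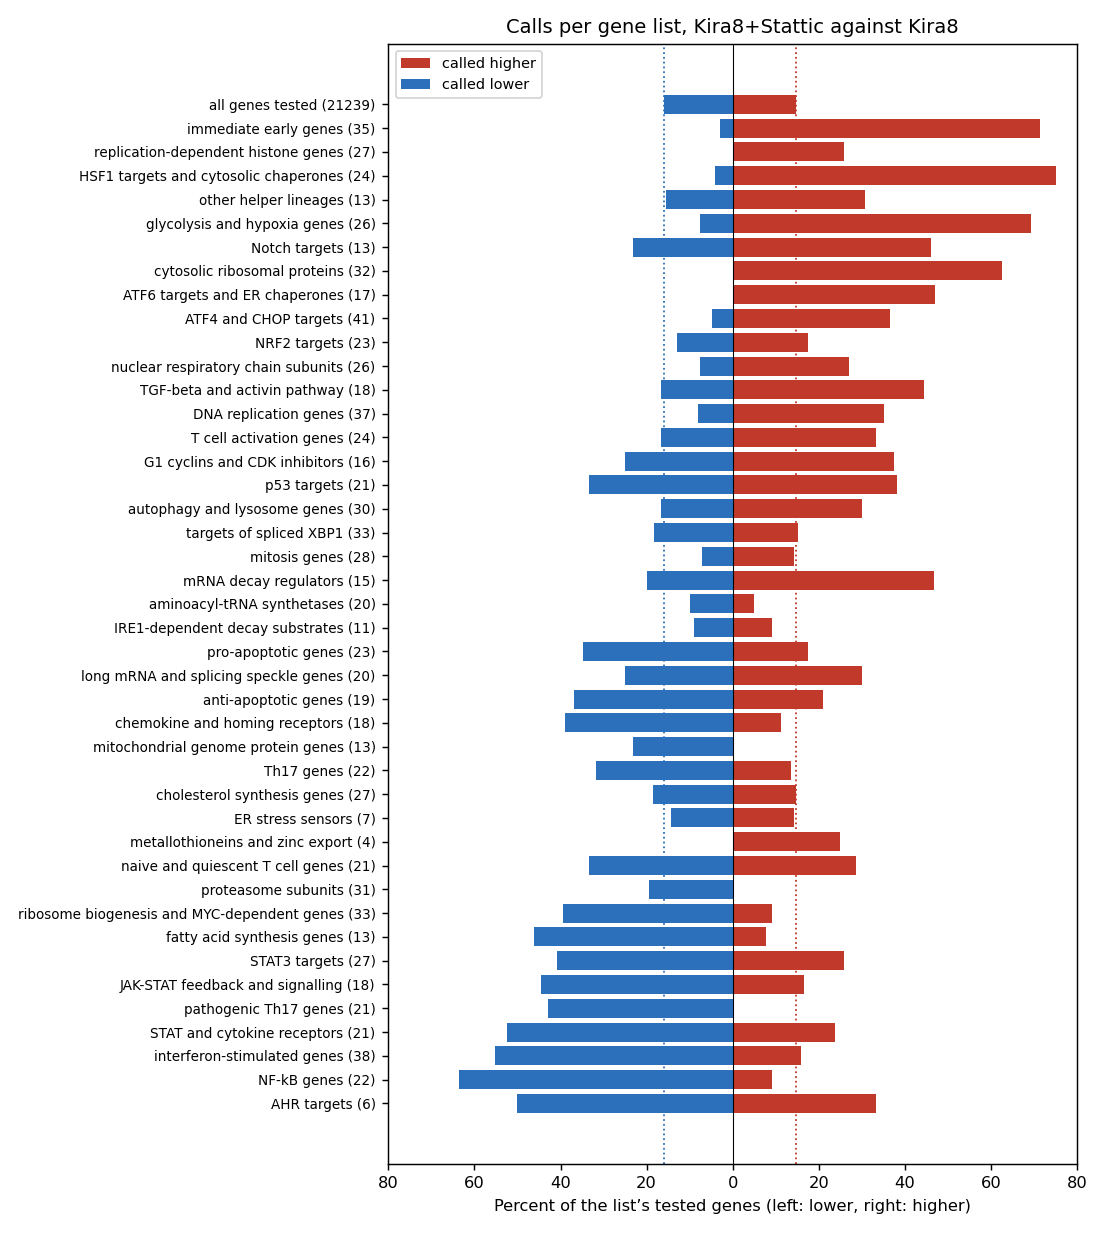
For each of 42 gene lists and for all 21239 genes, the percent of tested genes called higher (red, right) and lower (blue, left) with Stattic on top of Kira8; the number tested is in brackets, dotted lines mark 14.7% and 16.0%, and lists are ordered by median change. HSF1 targets, immediate early genes and glycolysis genes have the largest shares higher, and NF-kB and interferon-stimulated genes the largest shares lower.

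Survival genes divided within the BCL2 family. Bcl2 (ENSMUSG00000057329, chromosome 1, 106538178 to 106714274, minus strand) went from 244 and 296 to 90.7, 73.6 and 57.1 CPM (-1.87 ± 0.24, adjusted p = 0.000204). Bcl2l1, which encodes Bcl-xL (ENSMUSG00000007659, chromosome 2, 152780668 to 152831728, minus strand), went from 149 and 156 to 39.3, 36.2 and 42.2 CPM (-1.96 ± 0.22, adjusted p = 8.29e-05), and Bcl2l2 from 32.4 and 35.0 to 11, 9.58 and 8.99 CPM. Neither Bcl2 nor Bcl2l1 overlapped between groups, nor did 62.7% of all genes. Both calls held without each library. Mcl1 rose, from 559 and 531 to 661, 838 and 905 CPM (0.56 ± 0.17, adjusted p = 0.0303), a call lost without Kira8 replicate 1 or 3 or Kira8+Stattic replicate 2 or 3. Bcl2l11, which encodes the BH3-only protein Bim, was not called (0.56 ± 0.21, adjusted p = 0.0616), although its change passed the threshold without Kira8+Stattic replicate 1. By lists, 7 of 19 anti-apoptotic genes fell and 4 rose, and 8 of 23 pro-apoptotic genes fell and 4 rose; 5 of the latter fell without Kira8 replicate 1. The death receptors Fas and Tnfrsf10b fell (-1.77 ± 0.17 and -2.23 ± 0.23), as did the apoptosome scaffold Apaf1 (-1.12 ± 0.18). Of 21 p53 targets 8 rose and 7 fell, Plk3 and Sesn2 by 2.05 and 1.98, Zmat3 by -1.56. With scaling by library size alone that split was 8 and 8. Beside these list counts, the shares over all genes were 14.7% higher and 16.0% lower.

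Lists of growth genes had median changes between -0.25 and 0.61. Of 33 ribosome biogenesis and MYC-dependent genes 13 fell and 3 rose (16 and 1 with scaling by library size alone), with a median of -0.25; 9 fell without Kira8 replicate 1 and 4 without Kira8 replicate 3, and 8 without Kira8+Stattic replicate 2 or 3. The polymerase I subunit Polr1b went from 60.3 and 66.8 to 27.8, 19.7 and 17.8 CPM and Nop2, an rRNA methyltransferase, from 74.5 and 90.3 to 56.1, 38.7 and 40.8 (-0.87 ± 0.17, a call lost without Kira8 replicate 3). Of 32 cytosolic ribosomal protein genes 20 rose and 0 fell in edgeR, by small amounts (median 0.61), but 0 were called without Kira8 replicate 1 or 3, 8 and 11 without Kira8+Stattic replicate 1 or 2, 2 without replicate 3, and 3 with scaling by library size alone. Of 31 proteasome subunits 6 fell and 0 rose, and 1 fell without Kira8 replicate 3. Of 20 aminoacyl-tRNA synthetases 1 rose and 2 fell, and 0 and 4 with scaling by library size alone. Beside the counts of proteasome and synthetase genes, the shares over all genes were 14.7% higher and 16.0% lower.

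DNA replication genes were higher in part: 13 of 37 rose and 3 fell, with 6 risen without Kira8 replicate 3. The helicase subunit Mcm6 went from 257 and 243 to 522, 553 and 569.8 CPM (1.13 ± 0.17, adjusted p = 0.000453) and the origin factor Orc1 from 9.29 and 11.2 to 41.9, 51.0 and 55.7 CPM. Of 28 mitosis genes 4 rose and 2 fell (2 and 1 without Kira8 replicate 3), Cdc20 by 1.45 and Aurka by 1.06, Top2a by -1.01. The G1 kinase Cdk6 went from 347 and 432 to 119.5, 79.3 and 74.4 CPM and cyclin D3, Ccnd3, from 86.1 and 82.7 to 222, 230.1 and 248 CPM, so that G1 genes moved in opposite directions. The inhibitors Cdkn1c and Cdkn2d rose (3.27 and 1.48). Beside the counts of replication and mitosis genes, the shares over all genes were 14.7% higher and 16.0% lower.

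Genes of lipid synthesis were called in both directions, as were all genes (14.7% higher and 16.0% lower). Cholesterol synthesis genes had 4 higher and 5 lower of 27 (2 and 9 with scaling by library size alone), and fatty acid genes 1 higher and 6 lower of 13, with the desaturase Scd1 at 178 and 147 and then 86.6, 77.8 and 63.7 CPM and the ligase Acsl3 rising from 96.7 and 89.3 to 244, 306 and 303 CPM. Of 30 autophagy and lysosome genes 9 rose and 5 fell, 6 and 7 with scaling by library size alone; Map1lc3b, the LC3 gene, went from 126 and 126 to 372, 374 and 389 CPM and the receptor Optn from 33.4 and 41.6 to 9.01, 11.9 and 7.88 CPM. Respiratory chain genes of the nucleus had 7 higher and 2 lower of 26, and 0 in either direction without Kira8 replicate 1 or 3. Of 13 protein genes of the mitochondrial genome 3 fell and 0 rose (1 fell without Kira8 replicate 1), with mt-Nd6, the light-strand gene, at 911 and 788 and then 234, 372 and 299.6 CPM. Of 27 replication-dependent histone genes 7 rose and 0 fell, 2 without Kira8 replicate 3.

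Of 13 Notch-list genes 6 rose and 3 fell, and of 18 genes of the TGF-beta pathway 8 rose and 3 fell. Of all genes, 14.7% rose and 16.0% fell. Hey1, a Notch-induced repressor, went from 0.488 and 0.518 to 10.6, 13.3 and 22.2 CPM (4.93 ± 0.37, adjusted p = 1.04e-05) and Hes1 from 0.0814 and 0.167 to 6.20, 5.58 and 10.2 CPM. Hey2 was at 0 in both Kira8 libraries and at 0.727, 0.790 and 3.14 CPM with both inhibitors, so no fold is given. Smad7, the inhibitor that TGF-beta induces, went from 29.4 and 28.8 to 248, 212 and 254 CPM (3.03 ± 0.17), and the activin antagonist Fst and the decoy receptor Bambi changed by 3.53 ± 0.41 and 3.60 ± 0.33. Rasd1, Arl4d, Foxq1, Snai1, Rhpn2, Lrrn4cl, Ankrd55 and the RNase P RNA Rpph1 were also among the largest rises, all from under 2 CPM in both Kira8 libraries. Rasd1, a RAS-like GTPase, had 0.309 and 0.384 and then 11.4, 11.4 and 20.5 CPM. The change of Ankrd55 (5.55 ± 0.82) became 4.95 with Kira8 replicate 1 left out and 6.55 with replicate 3 left out.

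Of 15 decay regulators 7 rose and 3 fell, where 14.7% and 16.0% of all genes did. With scaling by library size alone the counts were 5 and 4. Zfp36, the tristetraprolin gene, rose by 1.66, while the RNases Zc3h12a (Regnase-1) and Zc3h12d changed by -1.22 ± 0.17 and -1.73 ± 0.15. The nuclear RNA Neat1, which builds paraspeckles, went from 627 and 676 to 154, 185 and 233 CPM (-1.77 ± 0.26), and the splicing factor Tra2b from 237 and 238 to 471, 487 and 537 CPM. Protein-coding genes called lower had a median exon length of 5317.5 bases and those called higher of 3479. From the shortest to the longest quintile by exon length, the share called higher went from 22.9% to 10.7% and the share called lower from 6.81% to 27.1%. With Stattic in cells without Kira8 the shares higher were 21.7% and 20.4% and lower 15.4% and 24.9%. What part length had in the calls was not tested.

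Markers of other cells were summed in each library. T cell markers had 4 higher and 0 lower of 16 in edgeR, with summed levels of 4086 to 4387 CPM with Kira8 and 4797 to 5129 with both inhibitors. CD8 T and NK cell markers had 3 higher and 0 lower of 13, with sums of 239.7 to 276 CPM with Kira8 and 291 to 439 CPM with both inhibitors, and 1 was called higher without Kira8 replicate 1, Kira8 replicate 3 or Kira8+Stattic replicate 2; the granule gene Nkg7 rose by 1.23, and Gzmk was at 0 in 1 library of each group. B cell markers had 0 higher and 3 lower of 14, with sums of 177 to 209 and 77.7 to 143 CPM, lower in all 3 Kira8+Stattic libraries, and 0 were called without Kira8 replicate 1 or Kira8+Stattic replicate 3 and 1 without Kira8 replicate 3. The B cell factor Pax5 was at 7.81 and 7.93 and 5.97, 4.77 and 2.69 CPM. Myeloid and dendritic markers had 0 higher and 1 lower of 15, with sums of 92.2 to 93.6 and 40.4 to 146 CPM, and C1qa was at 0 in both Kira8 libraries. Stromal and endothelial markers had 1 higher and 1 lower of 6 tested, and erythroid and platelet markers 1 higher of 7, each gene under 1 CPM in the 5 libraries. The single calls among myeloid, erythroid and platelet markers and the fall among stromal markers were lost without either Kira8 library. Beside the marker counts, the shares over all genes were 14.7% higher and 16.0% lower. The part of these other cells in the falls of Ciita and other genes that B cells also express was not tested.

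The same inhibitor was also given without Kira8, and the comparisons share no library. Stattic against None called 8281 genes (39.0%). Of the 3116 genes higher on top of Kira8, 2037 were also higher without it (65.4% of the former, 47.7% of the 4270 latter), and of the 3398 lower, 2154 were also lower (63.4%, and 53.7% of 4011). Called in opposite directions were 80 and 90 genes. Hspa1b, Bcl2 and Iigp1 moved in the same direction in both: without Kira8, Hspa1b changed by 8.67, Bcl2 by -1.81 and Iigp1 by -5.78. Across genes, which are not independent replicates, the changes correlated with r = 0.379.

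The difference between the responses was tested as an interaction and called for 1810 genes (8.52%), 966 higher and 844 lower; 341 of these held without each library in turn, and the count was 498 and 515 without Kira8 replicates 1 and 3, 1144 and 1137 without Kira8+Stattic replicates 2 and 3, and 680 without Stattic replicate 3. Among them 500 genes were lower with Stattic only in the test without Kira8 and 362 were higher only there. Where both responses went the same way, 285 were smaller with Kira8 and 53 larger. Ccr7 had 248, 165 and 223 CPM in None, 1549.6 and 1567 with Kira8, 129.7 and 88.0 with Stattic and 142, 117 and 111 with both, an interaction of -2.70 ± 0.30 (adjusted p = 0.000935). Vps37b, an ESCRT-I gene, had 18.8, 26.0 and 23.5 CPM in None and 315 and 203 with Stattic, but 272 and 226 with Kira8 and 259, 272 and 241 with both (-3.46 ± 0.29, adjusted p = 0.000325). For Prag1, a pseudokinase scaffold, the level was 20.6, 28.9 and 22.1 CPM in None, 15.5 and 17.4 with Stattic, 2.18 and 2.80 with Kira8 and 13.4, 16.3 and 15.8 with both (3.14 ± 0.31, adjusted p = 0.000674). The cytokine Ifng had 120.2, 289 and 96.4 CPM in None and 18.1 and 8.15 with Stattic, against 9.73 and 9.30 with Kira8 and 7.997, 11.7 and 5.42 with both (3.50 ± 0.69, adjusted p = 0.0109).

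By lists, the interaction was called higher for 25 of 33 ribosome biogenesis genes, a list of which 30 fell with Stattic alone (median -1.84). It was higher for 8 of 37 DNA replication genes and 7 of 24 activation genes, and lower for 13 of 30 autophagy genes, 7 of 27 cholesterol genes and 7 of 21 naive and quiescent genes. The ribosome biogenesis gene Polr1b had 159.7, 241 and 217 CPM in None, 60.3 and 66.8 with Kira8, 27.4 and 19.5 with Stattic and 27.8, 19.7 and 17.8 with both. Of 24 heat shock genes the interaction was called for 4, 1 higher and 3 lower. Over all 21239 genes it was called for 8.52%, 966 higher and 844 lower.

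Markers of other cells moved with the interaction too. Over all 21239 genes, the interaction was called higher for 966 and lower for 844. Summed CD8 T and NK cell markers were at 1255 to 2112 CPM in None, 239.7 to 276 with Kira8, 678 to 862 with Stattic and 291 to 439 with both, and the interaction was called higher for 4 of 13. Summed B cell markers were at 338 to 423 CPM in None, 177 to 209 with Kira8, 75.7 to 142 with Stattic and 77.7 to 143 with both, and the interaction was called higher for 4 of 14. Their part in the interactions of Ifng, Ccl4, Xcl1 and Nkg7, which CD8 T and NK cells also express, or of Pax5 was not tested.

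Other genes with the largest interactions included secreted products and receptors. The interaction was 3.54 ± 0.75 for Tns4, a tensin, 3.38 ± 0.50 for the chemokine Ccl4, 3.04 ± 0.40 for the chemokine Xcl1 and 3.04 ± 0.86 for the cytokine Il2. Gpr83 and Themis2 had 2.99 ± 0.53 and 2.95 ± 0.36. On the lower side were Pde2a, a phosphodiesterase, with -4.75 ± 1.31, the receptor partner Ramp3 with -3.98 ± 0.60, and Hpgds, a prostaglandin D synthase, with -3.78 ± 0.43. Clstn3, the phosphatase Dusp8, Sv2c and the zinc finger factor Casz1 had -3.29 ± 0.70, -3.23 ± 0.48, -3.22 ± 0.39 and -3.21 ± 0.46. The interactions of Ifng, Tns4 and Polr1b were lost without Kira8 replicate 1 or 3 or Stattic replicate 3, that of Clstn3 without Kira8 replicate 1, and those of Il2 and Pde2a without most single libraries. On top of Kira8, Il2 had 5.97 and 7.35 CPM and then 1.40, 2.11 and 1.96 CPM (-1.86 ± 0.58, adjusted p = 0.0282), a call lost when any 1 of the 5 libraries was left out.

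Counts of several lists moved when 1 library was left out. They are given in the order without Kira8 replicate 1, without Kira8 replicate 3, and without Kira8+Stattic replicates 1, 2 and 3. Members that rose numbered 2, 1, 5, 3 and 2 for NRF2 targets, 9, 11, 17, 13 and 11 for ATF4 and CHOP targets and 4, 6, 8, 7 and 6 for p53 targets. They numbered 5, 4, 7, 5 and 5 for activation genes, 3, 2, 5, 3 and 5 for STATs and cytokine receptors and 3, 5, 5, 5 and 5 for interferon-stimulated genes. Anti-apoptotic genes that rose numbered 2, 1, 5, 2 and 2, and pro-apoptotic genes 1, 3, 5, 4 and 3 higher and 5, 5, 7, 5 and 5 lower. XBP1 targets had 3, 2, 4, 5 and 4 higher and 3, 3, 6, 5 and 5 lower, and cholesterol genes 0, 0, 4, 2 and 4 higher and 2, 4, 5, 4 and 4 lower. Autophagy genes had 5, 4, 10, 6 and 6 higher and 2, 2, 4, 3 and 2 lower, and genes of the TGF-beta list 5, 4, 8, 5 and 7 higher and 1, 2, 3, 2 and 2 lower. Histone genes that rose numbered 6, 2, 6, 4 and 3, mRNA decay regulators 4, 5, 6, 5 and 5 and nuclear respiratory chain genes 0, 0, 5, 4 and 5. Ribosome biogenesis genes that rose numbered 0, 0, 1, 3 and 1, and glycolysis genes that fell 1, 0, 1, 0 and 0. NRF2 targets that fell numbered 3, 1, 3, 2 and 2, DNA replication genes 2, 0, 3, 2 and 2 and mitosis genes 1, 1, 3, 1 and 1. Aminoacyl-tRNA synthetases had 0, 0, 2, 0 and 0 higher and 2, 1, 2, 1 and 1 lower, and homing receptors that rose numbered 1, 0, 2, 1 and 1.

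**Figure D4:**
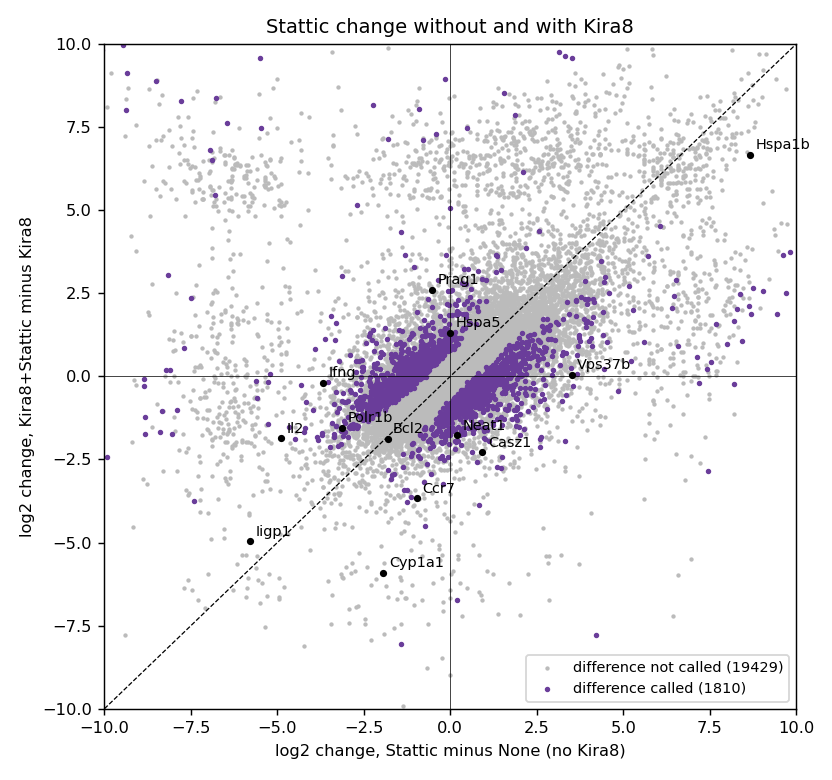
Each point is a gene, with its log2 change from None to Stattic (horizontal) against that from Kira8 to Kira8+Stattic (vertical); purple marks the 1810 genes whose changes differed by the interaction test, and the dashed line marks equal changes. Vps37b, Il2 and Ifng lie far from the line, Bcl2 lies on it, and genes beyond 10 on either axis are not drawn (34 genes).

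**Figure D5:**
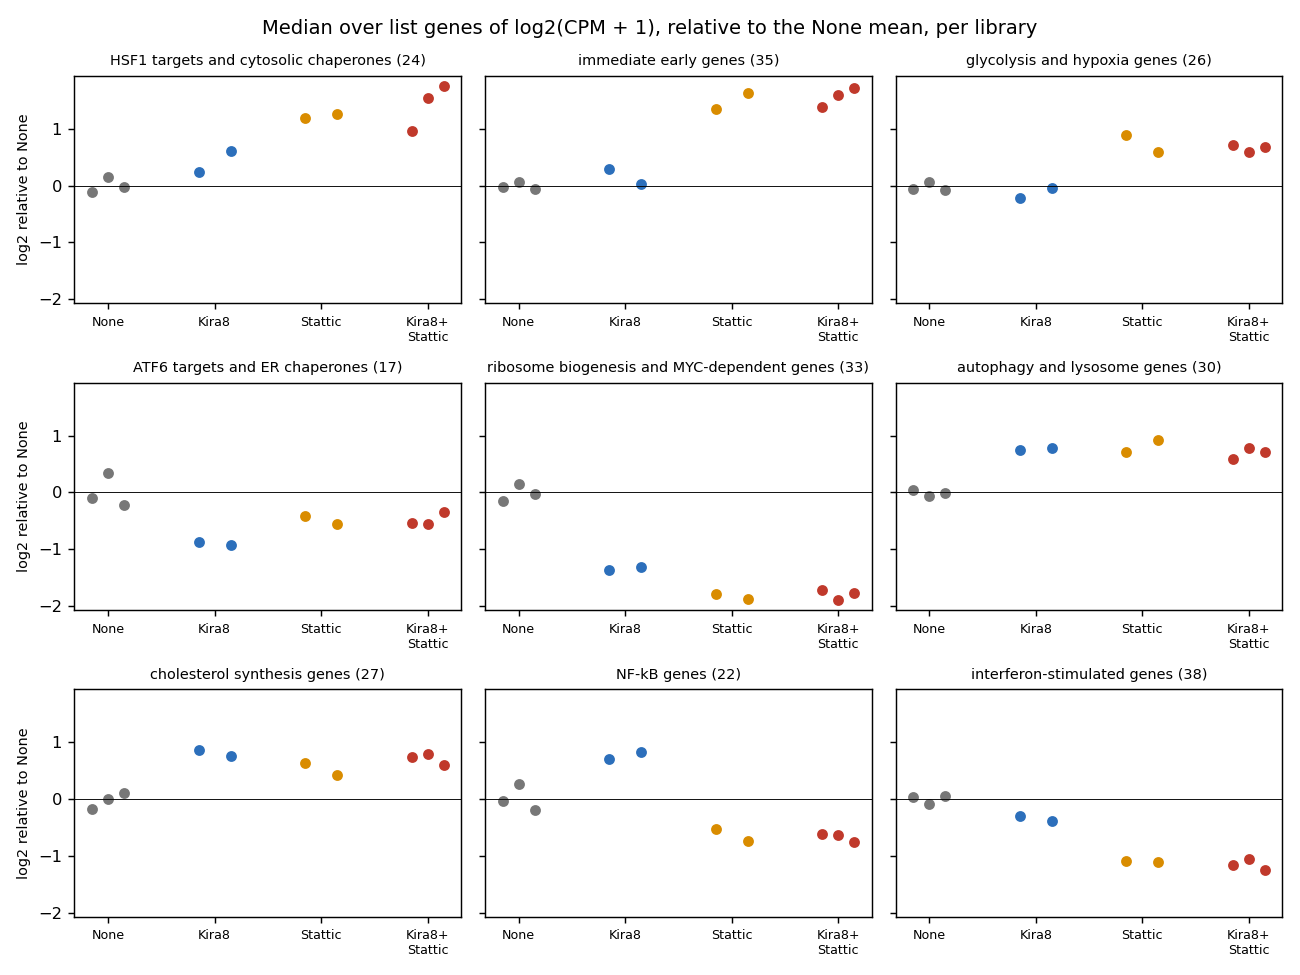
For 9 gene lists, each point is a library: the median over the list's tested genes of log2(CPM + 1) relative to the mean of None. Heat shock, immediate early and glycolysis genes are raised in all 5 libraries with Stattic, NF-kB genes are above None with Kira8 and below it with Stattic, and ribosome biogenesis genes are low in all 7 libraries with an inhibitor.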

How the data were processed

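RNA-seq was done on 12 libraries of mouse Th17 cells. The deposited values are raw read counts for 55401 genes, mapped to mm10 per the submitters' processing notes; for the aligner, the counter and the use of strand: not given in the sources used here. Without strand, reads of overlapping or antisense genes cannot be told apart. Totals were 51.7 to 85.9 M counts in the 5 libraries compared.

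Counts were fitted with edgeR 4.0.16 (R 4.3.3): its default expression filter, TMM scaling, a quasi-likelihood fit of the 4 groups over 10 libraries (without Kira8 replicate 2 and Stattic replicate 2), and Benjamini-Hochberg adjustment over all genes tested. CPM are TMM-scaled, and 3 counts were taken as the floor. A second fit held all 12 libraries. DESeq2 1.42.0 and limma 3.58.1 were alternatives.

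The members, the 42 gene lists and the 6 marker lists were chosen with earlier results of these data known. Named are 17 followed genes, the 15 largest changes each way among genes at 5 CPM or more that were called without each library in turn, the 8 largest interactions each way, and up to 4 members per list with the smallest adjusted p. Some genes that this rule names are not reported here. Cd4, Dnajb6, Eno1, Hes1, Hif1a, Hk2, Hspd1, Hspe1, Hsph1, Irf1, Isg15, Junb, Ldha, Mx2, Nfkbid, Nfkbiz, Rsad2, Zfp36 and the low or absent markers were named after their values were seen. Promoters run from 250 bases before to 50 after the start (RefSeq, GRCm38.p6).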

Additional observations from a re-analysis of the deposited data

Results flagged for a closer look

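For 53 genes described above, the change with Stattic differed between cells with and without Kira8 by the interaction test of edgeR. Values in brackets are the log2 change with Kira8 minus that without it. A positive value can be a larger rise with Kira8, or a fall that was smaller or absent with it. A negative value can be a larger fall, or a rise that was smaller or absent. Ccl4, for instance, has a positive value but changed by -0.17 on top of Kira8 and was not called there. Of the 53 calls, 30 held without each of the 10 libraries in turn and 23 were lost without at least 1: 21 without Kira8 replicate 1, 21 without Kira8 replicate 3, 9, 13 and 11 without Kira8+Stattic replicates 1, 2 and 3, 11 and 16 without Stattic replicates 1 and 3, and 3, 3 and 5 without None replicates 1, 2 and 3. The 23 were Bcl2l2, lost without any 1 of the 10, Hey2 and Pde2a without 9, Il2, Nfkbie, Stat5a and Zc3h12d without 7, Ccnd3, Cdc20, Optn and Relb without 6, Tob1 without 5, Cyp1a1 and Zc3h12a without 4, Bcl2l11, Ifng, Ldha, Polr1b and Tns4 without 3, Pim1 without 2, and Clstn3, Fas and Il7r without 1. Cytokine, chemokine and effector genes with a positive value were Ifng (3.50), Ccl4 (3.38), Xcl1 (3.04), Il2 (3.04), Il10 (2.41), Lta (2.62) and Nkg7 (1.88). So were activation and signalling genes, Prag1 (3.14), Tns4 (3.54), Gpr83 (2.99), Themis2 (2.95), Pdcd1 (1.56), Egr2 (2.00), Gadd45g (2.35) and Dusp6 (1.80). Growth, replication and metabolic genes with a positive value were Polr1b (1.59), Nop2 (1.60), Orc1 (1.79), Cdc20 (1.09), Ccnd3 (1.04) and Ldha (1.05). The B cell factor Pax5 (2.54) was also positive. Summed CD8 T and NK cell markers and B cell markers moved with these genes, with the values of all 4 groups given above, and their part was not tested. The fitted value of Hey2 (6.06) rests on a group at 0 and is no fold. Negative values were found for the homing, receptor and STAT genes Ccr7 (-2.70), Il7r (-1.19), Stat5a (-0.93) and Pim1 (-1.05). Negative too were the NF-kB and decay genes Nfkbie (-0.94), Relb (-1.01), Zc3h12a (-1.03) and Zc3h12d (-0.85). Among apoptosis and stress genes, Apaf1 (-1.73), Bcl2l11 (-1.20), Bcl2l2 (-0.91), Fas (-1.29), Ddit3 (-1.70), Ppp1r15a (-1.57) and Dnajb2 (-1.75) were negative. The other genes with a negative value were Casz1 (-3.21), Clstn3 (-3.29), Cyp1a1 (-3.97), Dusp8 (-3.23), Hpgds (-3.78), Neat1 (-1.98), Optn (-1.70), Pde2a (-4.75), Ramp3 (-3.98), Satb1 (-1.66), Slc2a6 (-2.10), Sv2c (-3.22), Tob1 (-0.91), Vps37b (-3.46) and Zhx2 (-2.17).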

How the results depend on the processing

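The 6514 genes called on top of Kira8 became 342 with Kira8 replicate 2 added and 2912 in a test against 1.5-fold. Leaving out 1 of the 5 libraries gave 3270 to 6029. With all 12 libraries, the 0 calls of edgeR became 1226 with DESeq2, 2 with RLE size factors, 1 with limma voom, 9279 with limma voom and library quality weights, 2 with a filter of more than 1 CPM, and 0 to 27 with 1 library left out. The 1810 interaction calls became 3119 with DESeq2, and 498 to 2066 with 1 library left out. Where this leaves a group with 1 library, that library is assumed to vary like the other groups. With Kira8 replicate 2 added, the fitted changes of Rpph1 and Rsad2 turned to -2.53 and -0.76. The cause of these differences was not tested. The labels do not say that a replicate number marks shared cultures. Deviations of the same-numbered Kira8 and Kira8+Stattic libraries correlated at 0.0905 and 0.0908. Over all 4 groups, 9 of 13 same-numbered pairs were over 0.1 (-0.0506 to 0.262), so not every pair deviated together. In a group of 2 libraries the deviations mirror each other, so these pairs are not independent. With the replicate block 6660 genes were called on top of Kira8, 0 with all 12 libraries and 1784 for the interaction, where it ended 4 of the 53 calls listed above (Bcl2l2, Il2, Tob1 and Zc3h12d). Other alternatives stayed within 1.5 times the counts reported. Kira8 has 2 usable libraries, which limits the precision of every fold.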
